A study of Mus musculus with 2 samples.

Results

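The genes for the proteins of the cytosolic ribosome were examined in open chromatin of the mouse limb. The set was chosen by symbol from the protein-coding genes of the GENCODE annotation of mm10 (release M21): symbols that start with Rpl or Rps followed by a digit, and Rpsa, without pseudogene names and without the Rps6k kinases. It held 83 of 21938 protein-coding genes. Of these, 74 encode core proteins of the ribosome, 43 of the large subunit (Rpl) and 31 of the small subunit (Rps). A further 8 are paralogs of core genes (Rpl3l, Rpl7l1, Rpl10l, Rpl22l1, Rpl36al, Rpl39l, Rps27l and Rps27rt). The last, Rps19bp1, matches the symbol rule but encodes a protein that binds Rps19 and is no part of the ribosome.

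The ribosome is built from ribosomal RNA and from proteins that are needed in equal amounts, and nearly every growing cell transcribes their genes at high rates. Many of the mRNAs begin with a short run of pyrimidines, the TOP motif, through which the mTOR pathway sets their translation. Loss of 1 copy of some of these genes gives tail, skeletal, skin or blood phenotypes in mice, so the genes are not only of interest as housekeeping genes.

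The data were DNase-seq, which sequences DNA ends left where the enzyme DNase I has cut open chromatin. A single group was measured: limb tissue of B6NCrl mouse embryos at 11.5 days, male and female pooled, with 2 biological replicates of 1 technical replicate each. Both replicates carry the same donor label and are listed as healthy, the number of embryos pooled is not given in the sources used here, and only replicate 2 has instrument models in its labels. There is no second condition and no control, so values are given per library, beside all protein-coding genes and 2 other gene lists, and no test between groups was possible.

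Each library comes as a list of peaks of 150 bp with a signal value and as a list of wider hotspots with a −log10 q value. On the 21 named chromosomes replicate 1 held 174430 peaks with a median signal of 47, and replicate 2 held 167369 peaks with a median signal of 39. The scale of the signal is not stated, so a peak was ranked only within its own library. No read counts accompany the lists used here, so depth is unknown and no interval from counting error is given. Markers of limb mesenchyme had a promoter peak shared by both libraries in 10 of 10 genes (such as Prrx1, Msx1 and Tbx5), and markers of surface ectoderm in 4 of 4. The other marker lists gave 3 of 3 for neurons, 1 of 2 for pancreas (Pdx1), and 0 of 6 for liver, lung and macrophages together. Their part in the results below was not tested, and an open promoter at a marker does not measure how many cells of that type were present.

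The sequences around the start of transcription are shown first, for members whose peaks and words are described later. They come from the RefSeq promoter table (GRCm38.p6, the build also called mm10), which held 64 of the 83 genes. Each runs 5′ to 3′ on the strand of the gene from 60 bases before the RefSeq start to 20 bases after it. The first set has, in capitals, a run of at least 8 pyrimidines that touches the 10 bases to either side of the start. A TOP motif is a run of pyrimidines that begins at the very first base of the mRNA. The rule used here does not ask for that, so its counts are not counts of TOP motifs. Moreover, a run that ends before the start lies outside the transcript as RefSeq places it. It lies at Rpl13 at chr8:123102290-123102369 on the plus strand, Rpl31 at chr1:39367791-39367870 on the plus strand, Rpl34 at chr3:130730379-130730458 on the minus strand and Rps27l at chr9:66946026-66946105 on the plus strand.
Rpl13: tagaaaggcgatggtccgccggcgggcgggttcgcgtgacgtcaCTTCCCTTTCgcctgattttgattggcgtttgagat
Rpl31: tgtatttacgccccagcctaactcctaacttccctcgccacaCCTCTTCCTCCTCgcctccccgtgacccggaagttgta
Rpl34: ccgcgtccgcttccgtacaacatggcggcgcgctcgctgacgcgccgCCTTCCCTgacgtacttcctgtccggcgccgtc
Rps27l: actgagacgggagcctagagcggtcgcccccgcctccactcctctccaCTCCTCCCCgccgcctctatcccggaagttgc
Rps27: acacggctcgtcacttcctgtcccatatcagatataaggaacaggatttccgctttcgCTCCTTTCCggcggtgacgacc
The last of these, Rps27 at chr3:90213629-90213708 on the minus strand, has a run of 9 bases that covers the start, while the runs of Rpl13, Rpl31, Rpl34 and Rps27l end before it. Of the 26 members with a run, it covers the start in 12, ends before it in 8 and begins after it in 6. Over these members the run was 8 to 21 bases long, longest in Rpl7a.

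The second set has the word CCGGAA in capitals, read on either strand (TTCCGG), which is the core bound by ETS factors such as GABP. It holds the member with the highest signal (Rps21), a pair of members with a known phenotype or signalling role (Rps7 and Rpl11) and others with the word near the start. The sequences lie at Rps21 at chr2:180257319-180257398 on the plus strand, Rps7 at chr12:28635934-28636013 on the minus strand, Rpl11 at chr4:136053374-136053453 on the minus strand, Rpl27 at chr11:101442185-101442264 on the plus strand and Rpl37 at chr15:5116553-5116632 on the plus strand.
Rps21: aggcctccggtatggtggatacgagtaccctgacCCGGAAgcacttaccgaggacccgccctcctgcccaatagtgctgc
Rps7: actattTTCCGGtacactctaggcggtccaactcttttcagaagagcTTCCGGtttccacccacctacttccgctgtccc
Rpl11: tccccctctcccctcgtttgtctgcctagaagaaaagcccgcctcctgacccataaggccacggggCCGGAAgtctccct
Rpl27: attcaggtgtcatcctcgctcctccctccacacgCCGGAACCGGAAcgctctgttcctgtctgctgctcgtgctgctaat
Rpl37: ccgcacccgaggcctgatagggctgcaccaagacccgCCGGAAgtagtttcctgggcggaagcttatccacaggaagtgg
The word lies before the start in Rps21, Rpl27 and Rpl37, after it in Rpl11, and at both of its places before the start in Rps7.

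The third set shows Rps27, which had a strong peak, and its copy Rps27rt, which had none. It lies at Rps27 at chr3:90213629-90213708 on the minus strand and Rps27rt at chr9:114982720-114982799 on the minus strand. Capitals mark the part of their longest shared run that falls in these windows.
Rps27: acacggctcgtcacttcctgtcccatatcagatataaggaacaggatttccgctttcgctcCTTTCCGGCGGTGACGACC
Rps27rt: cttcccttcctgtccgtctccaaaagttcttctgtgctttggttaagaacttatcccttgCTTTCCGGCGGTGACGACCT
In the full promoter windows that run was 38 bases long, from base 2 to base 39 of Rps27 and from base 1 to base 38 of Rps27rt, counted from the start as base 1. It was thus confined to the transcribed side, and the bases before the start differ. The strongest peak of Rps27 is centred 15.5 and 35.5 bp from the start of Rab13, nearer than to the start of Rps27.

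The fourth set holds a core gene of low signal on the X chromosome (Rps4x), and a pair of paralogs that had no promoter peak (Rpl10l and Rpl3l). These windows hold neither of the patterns above and so have no capitals. They lie at Rps4x at chrX:102189372-102189451 on the minus strand, Rpl10l at chr12:66284382-66284461 on the minus strand and Rpl3l at chr17:24727766-24727845 on the plus strand.
Rps4x: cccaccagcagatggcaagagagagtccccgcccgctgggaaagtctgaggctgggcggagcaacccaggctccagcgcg
Rpl10l: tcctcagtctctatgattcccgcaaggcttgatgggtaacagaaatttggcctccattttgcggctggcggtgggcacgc
Rpl3l: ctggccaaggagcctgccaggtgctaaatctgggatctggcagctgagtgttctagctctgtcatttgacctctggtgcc

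Every core ribosomal protein gene had an open promoter in the limb. A promoter peak was a peak whose centre lay within 1 kb of any annotated start of the gene, and it was shared when the gene's promoter peaks of both libraries overlapped by 1 bp or more. Of the 83 genes, 79 had a shared promoter peak, against 66.8% of all protein-coding genes. The lists used for comparison were open as often, with 78 of 78 genes of the mitochondrial ribosome and 39 of 40 of the proteasome. All 74 core genes were among the 79 members with a shared promoter peak, and 5 of the other 9. In replicate 1 alone the count was 79 of 83, against 68.4% of all genes, and in replicate 2 alone it was 79 of 83, against 68.8%. The same 79 genes had a peak in both, so presence of a peak separated core genes from some paralogs and did not separate one core gene from another.

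The 4 members without a promoter peak in either library were Rpl3l, Rpl10l, Rpl39l and Rps27rt, all of them paralogs. Rpl3l is a striated muscle form of Rpl3, Rpl10l and Rpl39l are testis forms of Rpl10 and Rpl39, and Rps27rt is a short copy of Rps27. Rpl10l (ENSMUSG00000060499.7, chr12:66283379-66284401, minus strand) had its nearest peak 24429.5 bp upstream in replicate 1 and 25389.5 bp upstream in replicate 2, and these peaks were weak, with signals of 31 and 45. Rpl39l (ENSMUSG00000039209.12, chr16:10170226-10174911, plus strand) had its nearest peak 22642.5 and 22662.5 bp downstream, where it lies 35.5 and 15.5 bp from the start of Atf7ip2. Rpl3l (ENSMUSG00000002500.15, chr17:24727820-24736143, plus strand) had its nearest peak 3369.5 bp upstream in both libraries, 27.5 bp from the start of Ndufb10. The strong signal of those last peaks (122 and 129 near Rpl39l, 131 and 116 near Rpl3l) thus sits at the start of another gene. Rps27rt (ENSMUSG00000050621.7, chr9:114982366-114982739, minus strand) had its nearest peaks 3448.5 and 3308.5 bp downstream, with signals of 44 and 34.

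The core counterparts of these paralogs were open. Rpl3, which forms part of the peptidyl transferase centre, had a strongest promoter peak of 132 in replicate 1 and 129 in replicate 2. Rpl10, which is needed for the subunits to join, had 114 and 108, Rpl39, which lines the exit tunnel, had 113 and 92, and Rps27 had 130 and 124. The paralogs with a promoter peak were as high as core genes: Rpl22l1 had 123 and 117 beside 122 and 119 for Rpl22, and Rps27l, a target of p53, had 124 and 121. Rpl36al had 124 and 116, on chromosome 12, beside 103 and 96 for Rpl36a, on X. The strongest peak of Rpl36al is centred 46.5 and 26.5 bp from the start of Mgat2. In replicate 2 that is nearer than the start of Rpl36al. Rpl7l1 had 121 and 111 beside 111 and 114 for Rpl7. Rps19bp1 had 125 and 116.

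The strongest promoter peak of each gene, by the deposited signal, ranked near the top of its library. Over the 79 members with a peak it ran from 103 to 137 in replicate 1 (median 122) and from 86 to 139 in replicate 2 (median 116). The median member stood at percentile 98.3 among all peaks of replicate 1 and 96.7 in replicate 2, and the lowest member at 93.7 and 89.5. In replicate 1 all 79 lay in the top decile of peaks, where 45.6% of all protein-coding genes had a promoter peak. In replicate 2 it was 78, against 48.2% of all genes. Among genes with a promoter peak alone, the share in the top decile was 66.7% in replicate 1 and 70.1% in replicate 2. For the mitochondrial ribosome it was 94.9% and 97.4%, and for the proteasome 89.7% in both, so the like lists came close to the members. Promoter peaks were strong in general: the median gene with a promoter peak had 107 and 108, at percentiles 94.8 and 95.1 of all peaks.

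**Figure D1:**
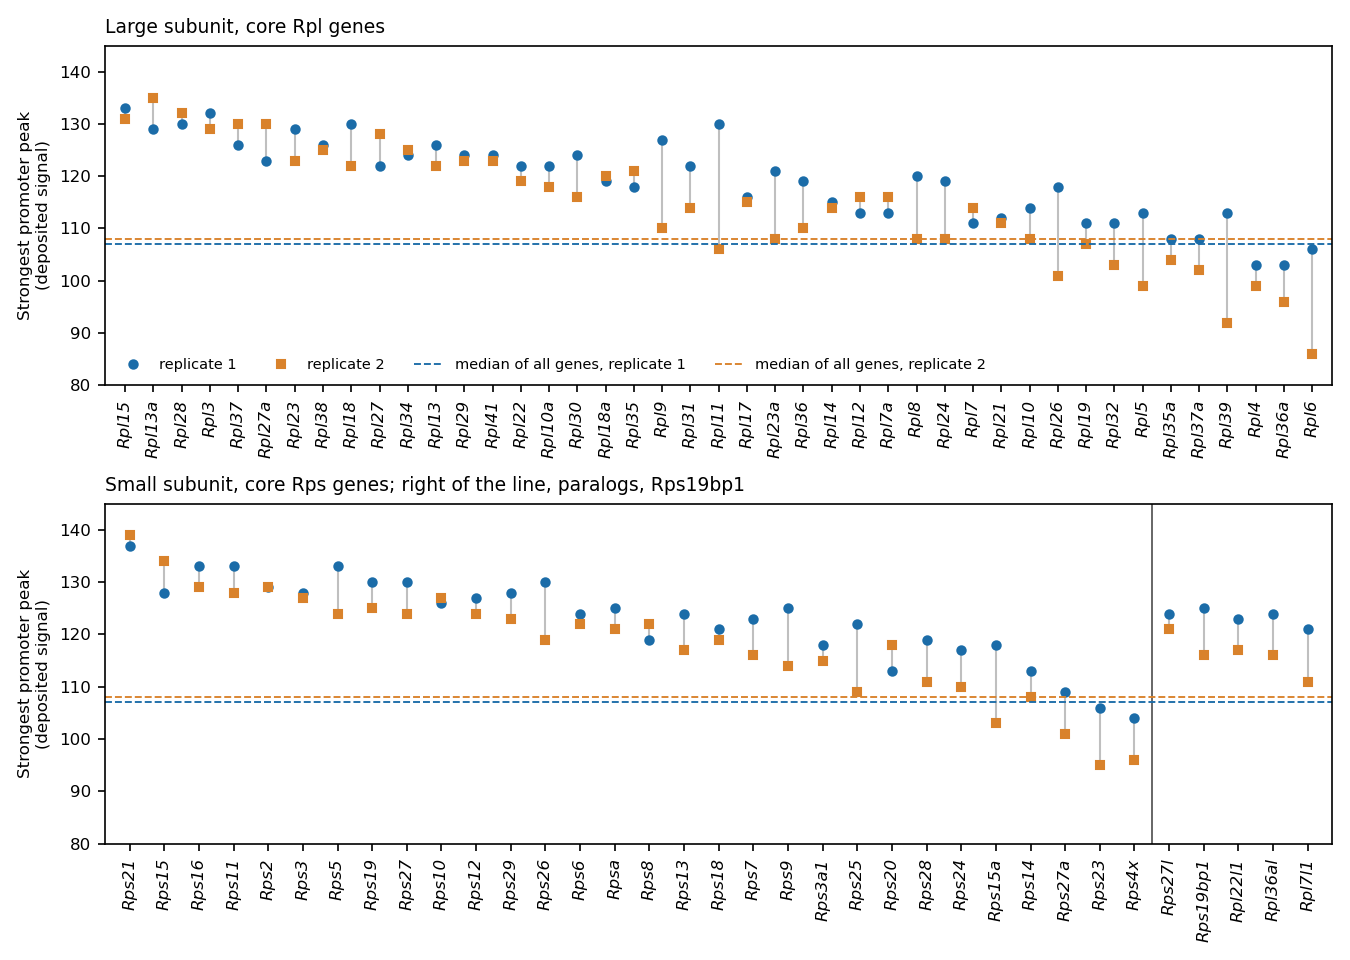
The deposited signal of the strongest promoter peak (vertical axis, which starts at 80) for each core Rpl gene (top) and each core Rps gene but 1 (bottom, with paralogs and Rps19bp1 right of the line), ordered by mean percentile, with circles for replicate 1, squares for replicate 2 and dashed lines at the median of all genes with a peak. Most members lie above both lines. The gap in signal between the libraries is widest in Rpl11, with 130 and 106, while the difference in percentile is largest in Rpl6.

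Ranked only among genes with a promoter peak, members stood above the middle, more so in replicate 1. The median member was at percentile 79.2 of such genes in replicate 1 and 64.3 in replicate 2. At or above the median gene were 74 of 79 members in replicate 1 and 63 of 79 in replicate 2. Core small subunit genes had medians of 124 and 119 and core large subunit genes 120 and 115, so the order was the same in both libraries. The 2 lists set beside them were lower in replicate 1: the 78 genes of the mitochondrial ribosome had medians of 113.5 and 113, and the 39 proteasome genes with a peak had 116 and 117, so in replicate 2 the proteasome median was 1 above that of the members. The members reached less far down than all genes. Their 25th percentile was 114.5 and 108, against 81 and 80, and their 5th percentile was 106 and 96, against 42 and 35. The like lists also reached less far down than all genes. In the mitochondrial ribosome the 25th percentile was 106.25 and 107, so the members' lead was small in replicate 2, and the 5th was 93.7 and 91.85. In the proteasome the 25th percentile was 106 and 102, and the 5th was 79.2 and 79.

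**Figure D2:**
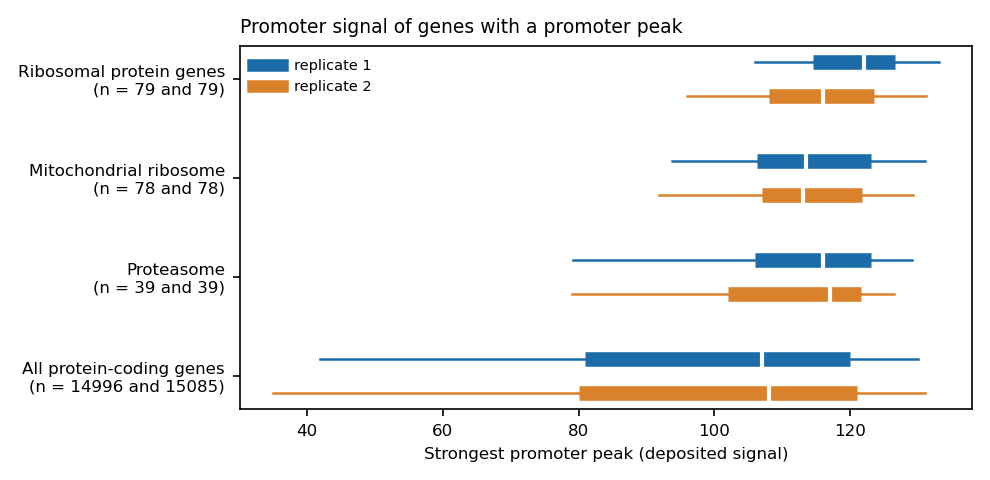
Deposited signal of the strongest promoter peak (horizontal axis) in ribosomal protein genes, mitochondrial ribosome genes, proteasome genes and all protein-coding genes with such a peak. Thick bars span the quartiles, white ticks mark the median and thin lines run from the 5th to the 95th percentile of genes. The members' bars begin at 114.5 and 108, against 81 and 80 for all genes. Those of the mitochondrial ribosome begin at 106.25 and 107, and those of the proteasome at 106 and 102.

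The highest members by mean percentile were Rps21, Rpl15, Rpl13a, Rpl28 and Rps15. Rps21, a small subunit protein whose promoter is shown above, had 137 in replicate 1 and 139 in replicate 2 from the same interval in both (chr2:180257196-180257345, centre at −106.5 bp from the start). Rpl15 had 133 and 131, and its peak at chr14:18271036-18271185 lies 25.5 bp from the start of Nkiras1 on the other strand, while the nearest start of Rpl15 is farther off, with the centre at −43.5 bp. Rpl13a, which in human cells also takes part in silencing of inflammatory mRNAs, had 129 and 135. Rpl28 had 130 and 132, and Rps15 had 128 and 134. Of these 5, Rpl15 alone ranked higher in replicate 1.

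The lowest members with a peak were Rpl6, Rpl36a, Rps4x, Rps23 and Rpl4. Rpl6 (chr5:121204481-121209241, plus strand) had 106 in replicate 1 and 86 in replicate 2, and its value in replicate 2 was the single member value outside the top decile. Rps23, which lies by the decoding centre, had 106 and 95. Rpl4, a protein of the exit tunnel, had 103 and 99, and the peak that gave these values is centred 57.5 and 37.5 bp from the start of the divergent gene Zwilch. The peak at the start of Rpl4 itself, 15.5 bp from it, had 91 and 83. In replicate 1 these 5 genes lay between percentiles 44.4 and 48.6 of genes with a promoter peak, just under the median, and in replicate 2 between 28.9 and 39.5, further below it.

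Rpl36a (103 and 96) and Rps4x (104 and 96) are X-linked, as are Rpl10 and Rpl39. The 4 X-linked members had medians of 108.5 and 96, against 122 and 118 in the 70 autosomal core members. Their values ran from 103 to 114 and from 92 to 108, within the range of the autosomal members. All X-linked genes with a promoter peak were also lower, with medians of 84 and 86 against 108 and 109 on autosomes. The embryos were of both sexes, so the tissue held fewer X chromosomes than copies of any autosome, and the part of this in the difference was not tested. Chromosome 7, singled out after the values were seen, holds 13 members, whose medians were 129 and 125, against 121 and 116 for members elsewhere, while all genes on it had 110 and 109.

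Members with known roles in development or disease were spread over the range. Rpl38, loss of which gives extra ribs and a short tail in the tail-short mouse, had 126 in replicate 1 and 125 in replicate 2. Rpl24, mutated in belly spot and tail mice, had 119 and 108. Rps6, the target of the S6 kinases, had 124 and 122, and Rps7, mutated in mice with skeletal and nervous system defects, had 123 and 116. Rps19 and Rps20, mutated in dark skin mice, had 130 and 125 for Rps19 and 113 and 118 for Rps20. Rpl27a, mutated in sooty foot ataxia mice, had 123 and 130, and Rpsa, the laminin receptor, had 125 and 121. Rpl5 and Rpl11, which with the small 5S RNA bind Mdm2, had 113 and 99 for Rpl5 and 130 and 106 for Rpl11. All of these are core genes with a shared promoter peak, and Rpl5 and Rpl24 stood below Rpl38, Rps6 and Rps19 in both libraries.

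The ribosomal genes that the symbol rule misses were alike. All 6 of 6 had a shared promoter peak. The stalk genes Rplp0, Rplp1 and Rplp2 had 125, 118 and 120 in replicate 1 and 120, 119 and 116 in replicate 2. Fau, which encodes a ribosomal protein fused to a ubiquitin-like protein, had 132 in replicate 1 and 123 in replicate 2, and Rack1 had 115 and 113.

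The libraries ordered the members alike, but most members ranked higher in replicate 1. The Spearman correlation of the strongest signal between libraries was 0.802 across the 79 members, which share libraries and are not independent replicates. The percentile was higher in replicate 1 for 66 of 79 members (83.5%), against 42.3% of the 14716 genes with a peak in both. The median difference of percentiles, replicate 1 minus replicate 2, was 1.03 for members and −0.41 for all genes. The 6 genes missed by the rule went the same way in 6 of 6, while mitochondrial ribosome genes did so in 42 of 78 (53.8%) and proteasome genes in 17 of 39 (43.6%). Among 9791 genes in the top decile of both libraries it was 48.4%. With 1 library on each side, this difference has no replicate check. The largest differences were in Rpl6 (106 and 86), Rpl11 (130 and 106), Rpl39 (113 and 92) and Rpl26 (118 and 101), all lower in replicate 2. For Rpl11 the strongest peak was the same interval in both (chr4:136053356-136053505). It was the sole promoter peak of the gene in replicate 1, and 1 of 4 in replicate 2.

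The members' strongest peaks sat close to the start, slightly upstream. Relative to the nearest annotated start, with minus meaning upstream, the centre lay at a median of −37.5 bp in replicate 1 and −31.5 bp in replicate 2, against −41.5 and −36.5 bp for all genes. It was upstream in 61 of 79 members (77.2%) in replicate 1 and 56 (70.9%) in replicate 2, against 73.3% and 70.8% of all genes, which is nearly the same share in replicate 2. Within 150 bp of a start were 71 of 79 members (89.9%) in replicate 1 and 72 (91.1%) in replicate 2, against 73.5% and 74.8% of all genes. The same share was 88.5% and 85.9% in the mitochondrial ribosome and 94.9% in both libraries in the proteasome, which was thus closer still. Measured from the RefSeq start, which 60 of these members have, the median was −60 bp in replicate 1 and −61 bp in replicate 2. By these starts 55 of 60 (91.7%) lay upstream in replicate 1, against 73.9% of all genes. In replicate 2 it was 52 of 60 (86.7%), against 71.6%. Within 150 bp of the RefSeq start were 90% of members in both libraries, against 65.3% and 66.5% of all genes. These shares were not taken for the other lists. For all genes in the RefSeq table the median lay at −49.5 bp in replicate 1 and −44.5 bp in replicate 2, so members lay farther upstream than all genes by RefSeq starts and less far by GENCODE starts.

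**Figure D3:**
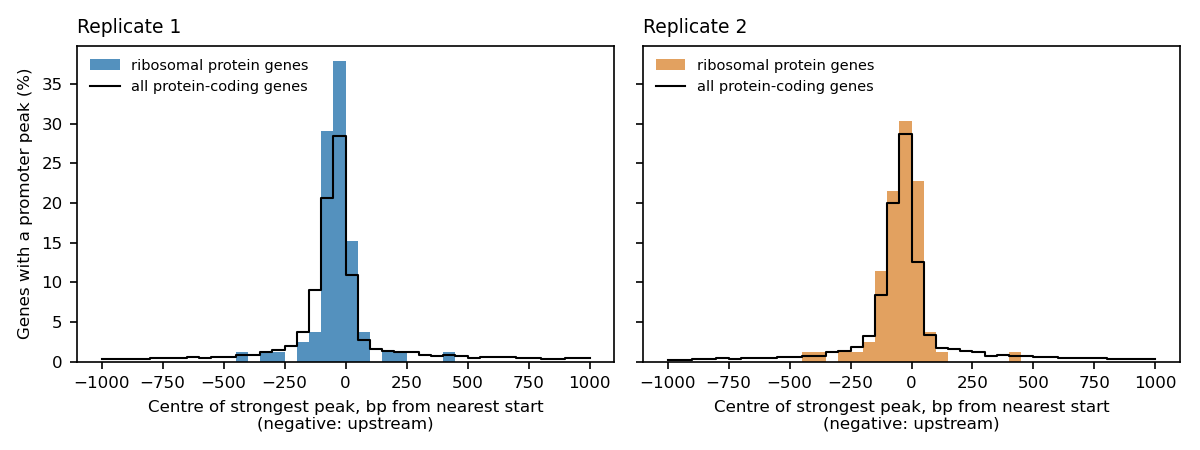
Share of genes (vertical axis, percent of those with a promoter peak) by the distance from the nearest start to the centre of the strongest peak (horizontal axis, 50 bp steps, negative upstream), with bars for the 79 ribosomal protein genes and a black line for all protein-coding genes, replicate 1 left and replicate 2 right. The members crowd into the steps around the start, with 71 and 72 of 79 within 150 bp.

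In most members the position of the strongest peak was nearly the same in both libraries. In 26 of 79 members it was identical, in 42 it was shifted by 20 bp, in 6 by 40 bp and in 5 by more. The positions lie on a grid of 20 bp, so a shift of 20 bp is the smallest possible. Shifts and overlaps were not counted for all genes or the other lists, so they are not read as particular to members. In 77 the strongest peaks of the libraries overlapped. The exceptions were Rpl18, where they lay 2680 bp apart at different annotated starts, and Rpl7, 580 bp apart, where peaks of similar height stand in a row (111, 105 and 103 in replicate 1, against 102, 106 and 114 in replicate 2). The strongest peaks farthest from a start belonged to Rpl35, Rpl4 and Rpl32. In Rpl35 the centre lay 413.5 and 433.5 bp downstream of the nearest GENCODE start but at −79.5 and −59.5 bp from the RefSeq start, so the distance depends on the annotation. In Rpl32 a peak at −303.5 bp with 111 stood beside one at −63.5 bp with 110 in replicate 1.

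Some of these peaks lie at the start of a neighbour as well as of the member. A protein-coding start on the opposite strand lay within 1 kb in 16 of 83 members (19.3%), against 11.4% of all genes. In 11 of 79 members (13.9%) in each library the centre of the strongest peak was nearer to the start of another gene than to the member's own, against 8.77% and 8.69% of all genes. Examples are Rpl9 with Lias (6.5 bp), Rps28 with Ndufa7 (1.5 bp), Rps27 with Rab13 (15.5 and 35.5 bp) and Rpl7a with Med22 (13.5 bp). Members with an opposite-strand neighbour had median signals of 121.5 and 116, against 122 and 117 without one, a gap of at most 1 unit of signal.

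Members had few promoter peaks each, as did other genes. The median was 2 in both libraries, against 3 and 2 for all genes with a peak. Exactly 1 was found in 23 of 79 members (29.1%) in replicate 1, against 20.7% of all genes with a peak, and in 19 (24.1%) in replicate 2, against 27.0%, so the direction turned between the libraries. The most were listed for Rps14 (10 and 5), Rpl3 (7 and 6) and Rpl13a (5 and 4). Rps14, whose loss has been tied to the anaemia of a human chromosome deletion, has annotated starts spread over its locus on chromosome 18, and its strongest peak had 113 and 108. Away from promoters, within 50 kb and assigned to the nearest start, members had a median of 1 shared peak, as did all genes. No such peak was found for 27 of 83 members (32.5%), against 36.1% of all genes. The share without one was larger in the mitochondrial ribosome (44.9%) and the proteasome (47.5%). Among members the most were 13 at Rpl14 and 11 at Rpl38.

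Hotspots at members were at the ceiling of confidence, as at nearly all genes of the other lists with a peak. Their median width was below that of all genes in both libraries. It was below both other lists in replicate 1 and slightly above them in replicate 2. The hotspot that holds the strongest peak had a deposited −log10 q of 100, the highest value in the lists, in all 79 members in both libraries, against 88.9% and 89.3% of all genes with a promoter peak. In the mitochondrial ribosome all 78 were at the ceiling too, and in the proteasome 97.4% in both libraries. Its width ran from 159 to 2824 bp in replicate 1 (median 787) and from 159 to 2918 bp in replicate 2 (median 1011). All genes had medians of 963 and 1113 bp, the mitochondrial ribosome 902 and 1007.5 bp, and the proteasome 929 and 1000 bp. The hotspot was wider in replicate 2 for 64 of 79 members (81.0%), against 66.6% of all genes. The Spearman correlation of the width between libraries was 0.739 across members, and that of width with signal was 0.084 and 0.070, so the highest peaks were not the ones in the widest hotspots.

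**Figure D4:**
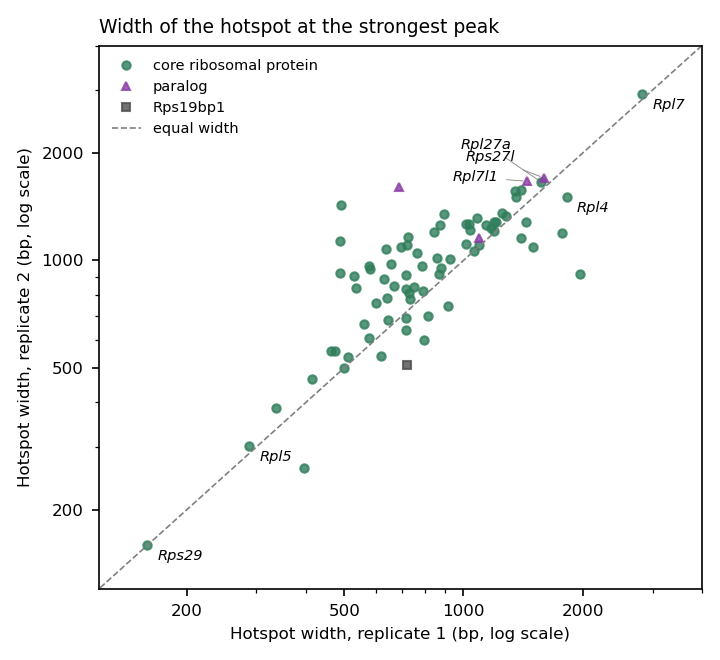
Width of the hotspot that holds the strongest promoter peak in replicate 1 (horizontal, log scale) and replicate 2 (vertical, log scale), 1 point per gene, with the dashed line at equal width. Most of the 79 genes lie above the line, Rpl7 is widest at 2824 and 2918 bp, and Rps29 narrowest at 159 bp in both.

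The widest hotspots were at Rpl7 (2824 and 2918 bp), the sole member at 2 kb or more, Rpl4 (1821 and 1503 bp), Rps27l (1598 and 1702 bp), Rpl27a (1570 and 1658 bp) and Rpl7l1 (1448 and 1666 bp). That at Rpl4 also covers the start of Zwilch. Among the narrowest were those at Rps29 and Rpl5, genes mutated in some patients with Diamond-Blackfan anaemia. Rps29 had a hotspot of 159 bp in both libraries around a peak with 128 and 123, and 3 weaker promoter peaks (52 to 71 in replicate 1, 48 to 72 in replicate 2) stood apart from it. Rpl5 had 288 and 302 bp. Rpl38 shows how far width can move between libraries at a steady signal: its hotspot was 490 bp in replicate 1 and 1426 bp in replicate 2.

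Members are short genes, and many carry small nucleolar RNA (snoRNA) genes within their bounds. The median gene length was 3289 bp, against 17425 bp for all protein-coding genes. A snoRNA gene lay inside on the same strand in 29 of 83 members (34.9%), against 1.18% of all genes. Rpl13a, known as a host of several box C/D snoRNAs, held 4. Members with a snoRNA gene had median signals of 121 and 118, and members with a peak but no snoRNA gene 122 and 116, so the medians lay within 2 units of each other in each library.

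Words for known factors were counted in the 300 bases of the RefSeq promoters (250 before the start, 50 from it on, both strands) of the 64 members in the table, and beside them in all 16538 promoters matched. The ETS word CCGGAA was found in 32 of 64 members, against 19.9% of all promoters and 26.6% of the 11358 promoters with a shared peak. It was as common in the mitochondrial ribosome (58.0% of 69) and the proteasome (48.5% of 33). The pyrimidine run at the start, on the strand of the gene, was in 26 of 64 members (40.6%), against 13.5% of all promoters, 13.6% of those with a shared peak, 13.0% of the mitochondrial ribosome and 18.2% of the proteasome. The ETS word was thus common in all 3 lists, and the share with the run was larger in members than in the other lists. A run that covers the start, which need not be a TOP motif, was in 12 of 64 members (18.8%), against 3.26% of all promoters. A match is a description of the letters and not of binding.

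**Figure D5:**
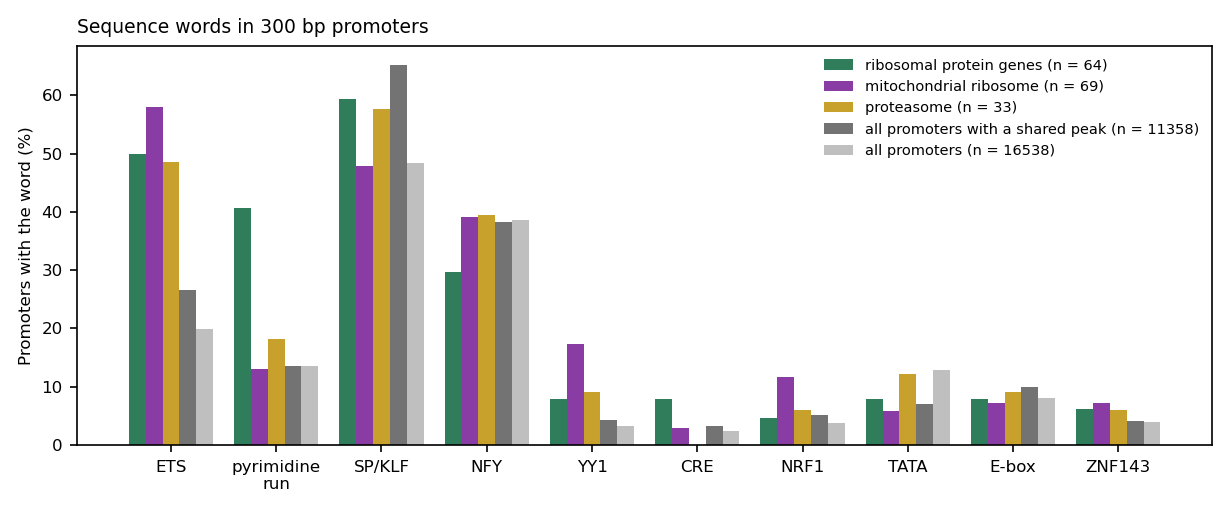
Share of promoters (vertical axis, percent) with each word, named by the factor family it is known for, in ribosomal protein genes, mitochondrial ribosome genes, proteasome genes, all promoters with a shared peak and all promoters of the RefSeq table. The members' bar for the pyrimidine run stands at 40.6% against 13.0% to 18.2% in the other groups, while for the ETS word the 3 gene lists stand between 48.5% and 58.0%.

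The other words differed by fewer percentage points between members and promoters with a shared peak, though the cAMP response element by a larger ratio than the ETS word. GGGCGG, bound by SP and KLF factors, was in 59.4% of members, against 65.3% of promoters with a shared peak, and CCAAT, bound by NFY, in 29.7% against 38.2%. TGACGTCA, the cAMP response element, was in 5 members (7.81%), against 3.18%, and AAGATGGC, bound by YY1, in 5 (7.81%), against 4.24%. Of the rarer words, GCATGCGC (NRF1) was in 4.69% against 5.21%, CACGTG (E-box) in 7.81% against 9.89%, ACTACAA (ZNF143) in 6.25% against 4.07% and TATAAA in 7.81% against 7.11%. A TATAAA on the gene strand 20 to 40 bases before the start was in 1 member (1.56%), against 1.22%. The words can overlap one another. Median GC content was 57% in members, as in all promoters, but 61.3% in promoters with a shared peak, and its part in these differences was not tested.

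Most ETS words of the members lay under the strongest peak. Of the 30 members with both the word and a promoter peak, the whole word lay inside the strongest peak in 23 (76.7%) in replicate 1 and 22 (73.3%) in replicate 2, against 58.5% and 58.4% of all promoters with both. In the mitochondrial ribosome it was 32 and 29 of 40, and in the proteasome 13 and 12 of 16. The members' SP and KLF word lay inside the strongest peak in 27 and 26 of 37 (73.0% and 70.3%), against 62.7% and 64.2% of all promoters with both. The members' strongest peaks also lay closer to the start than those of all genes, and the part of that in these differences was not tested. Members with the ETS word had median signals of 123.5 and 121 and members without it 122.5 and 116 (30 genes each). Members with the pyrimidine run had 124 and 121 (26 genes), and members without it 122 and 116 (34 genes). The gap was wider for the SP and KLF word in replicate 2: members with it had 124 and 121 (37 genes), and members without it 122 and 111 (23 genes). Across the 60 members with a promoter sequence and a peak, the Spearman correlation of GC content with signal was 0.283 in replicate 1 and 0.427 in replicate 2, a description with no test.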

How the data were processed

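DNase-seq of limb tissue from B6NCrl embryos at 11.5 days was analysed in 2 biological replicates, which form 1 group. Per the labels, the assembly is mm10, and peaks and hotspots were listed for each library apart. The deposited signal of each peak is the authors' own value with no stated scale. It was used to rank peaks and to compare genes within a library. Values of both libraries are printed side by side without a common scale. The deposited −log10 q value of each hotspot runs from 1.30 to 6 and then 100, read as a ceiling. No aligner, peak caller or read depth is named in these sources (not given in the sources used here).

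Members came from the GENCODE M21 annotation (54446 protein-coding starts on 21 chromosomes). A promoter peak had its centre within 1 kb of a start. Percentiles are mid-ranks within a library, hotspot width is that of the hotspot holding the strongest promoter peak, and distances are signed on the gene strand. Overlaps were computed with NumPy. Promoter words were counted in the RefSeq table (GRCm38.p6), matched by symbol. Mrpl and Mrps genes and Psma to Psmd genes served for comparison.

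The members, lists and words were chosen with earlier results of these data known. Named genes were the members without a peak, the 5 highest and 5 lowest by mean percentile, the 5 widest and 3 narrowest hotspots, the 4 largest differences between libraries, the 3 with most promoter peaks, the 3 with the farthest strongest peak, 11 with a known role, and 6 ribosomal genes outside the symbol rule. Paralogs, their core counterparts, the genes whose strongest peaks did not overlap, genes at shared starts, Rpl14 and the genes of the printed sequences were named in addition, after values were seen. The results for some genes that this rule or these lists name are not reported here. With 1 group of 2 libraries no test was made, and a value over genes measures no biological spread. The alternatives changed the window, the start, the overlap, the ranking, the hotspot chosen, the promoter length and the strand, and dropped 1 library at a time. The finding of promoter peaks and their shared status, the promoter words and the pyrimidine run were first tested on simulated data. Hotspot width was tested there with peaks in place of hotspots. Distances, percentiles and the counts of distal peaks, neighbours and snoRNA genes were not tested in this way. Python 3.11.15, NumPy 2.4.6, SciPy 1.17.1 and Matplotlib 3.10.9 were used.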

Additional observations from a re-analysis of the deposited data

How the results depend on the processing

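Over the 10 alternatives tried, the count of members with a promoter peak stayed between 76 and 79 where all 83 genes were kept. With core genes only it was 74 of 74, which is every gene of that list. The count was 76 with the 5′ end of the gene record as the start (without Rpl17, Rps10 and Rps2). It was 78 with an overlap of 75 bp (without Rps23). The share of all genes with a promoter peak was 64.7% with a window of 500 bp and 69.2% with 2 kb. The median percentile of the members over both libraries was 97.6, and 73.1 when ranked among genes with a promoter peak. The median distance was −37.5 bp over both libraries, −16.5 bp from the 5′ end of the gene record and −27.5 bp for the nearest peak. The share of members with the ETS word was 50% in the full window on both strands. It was 34.4% on the gene strand only, against 11.3% of all promoters, and 40.6% with 100 bases before the start, against 14.5%. Some other words moved too, and their shares are given for members only. On the gene strand only, the SP and KLF word fell to 28.1% against 59.4% on both strands, and the NFY word to 14.1% against 29.7%. With 100 bases before the start the NFY word fell to 18.8% and the SP and KLF word to 46.9%. The E-box and ZNF143 words, found in 5 and 4 members, fell to 1.56% each, against 7.81% and 6.25% in the full window. The share with TATAAA did not change. With either replicate alone the count was 79 in both cases, the median percentile 96.7 to 98.3 and the median width 787 to 1011 bp. These alternatives were run on the members' own values and not on each comparison with another list, and the order of the members' and the proteasome's median signal turned between the libraries (122 against 116 in replicate 1, 116 against 117 in replicate 2). No paired analysis was possible because the study has a single group and no comparison between groups. What limits these values is the absence of read depth, of another condition and of more libraries, and the promoter words leave out the 19 members that are not in the sequence table.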
